A study of Mus musculus with 6 samples.

Results

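The genes described here are 8 long noncoding RNAs of the mouse, taken by name from the 55401 genes of the count table: Neat1, Malat1, Tug1 and Kcnq1ot1, which act in the nucleus, and Gas5, Snhg1, Snhg12 and Zfas1, which are spliced hosts of small nucleolar RNAs (snoRNAs). The rule uses no measured value, although the members were chosen with earlier results of these data known. All 8 had counts in every library. They were measured by RNA-seq in C3H10T1/2 cells, a mouse mesenchymal line that can be driven towards bone, fat or cartilage fates. The 6 libraries come from 3 lines: shControl, with a control hairpin and labelled WT, shNFIB, in which a hairpin targets Nfib, and shMLL1, in which one targets Kmt2a, the gene of the histone methyltransferase MLL1. Each line carries an integrated hairpin, the control line included, and the sources used here do not say whether a line is 1 clone or a pool. Each was sampled untreated at day 0 and after 7 days in osteogenic medium, which held the glucocorticoid dexamethasone at 0.1 µM, ascorbic acid 2-phosphate at 100 µg/ml and β-glycerophosphate at 20 mM, so that each condition is 1 library. The design addresses how the transcriptome changes over 7 days in osteogenic medium and how each knockdown alters it. There was no day 7 library without the medium. Effects of the medium, dexamethasone included, and of time in culture therefore cannot be told apart in any day 7 against day 0 comparison.

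Nuclear long noncoding RNAs act without being translated. Neat1 is the architectural RNA around which paraspeckles form, while Malat1 is concentrated in nuclear speckles, the bodies that hold splicing factors. Kcnq1ot1 is an imprinted antisense RNA that silences neighbouring genes in cis on the paternal chromosome, and Tug1 is a widely expressed RNA with nuclear and cytoplasmic forms. The snoRNA hosts work differently: the snoRNAs lie in their introns and guide the modification of ribosomal RNA, whereas the spliced exons are poorly translated and, for several hosts, are degraded by nonsense-mediated decay.

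All positions are on GRCm38, from GENCODE M21. Neat1 (ENSMUSG00000092274, chr19:5824708-5845478, minus strand) and Malat1 (ENSMUSG00000092341, chr19:5795690-5802672, minus strand) are neighbours on chromosome 19 and are each covered by exon over their whole span, 20771 and 6983 bases. Tug1 (ENSMUSG00000056579, chr11:3639785-3649673, minus strand) shares 483 exon bases with the oppositely oriented Morc2a. Kcnq1ot1 (ENSMUSG00000101609, chr7:143203458-143296549, minus strand) lies inside Kcnq1 on the other strand and has 93092 exon bases. Gas5 (ENSMUSG00000053332, chr1:161034422-161038539), Snhg1 (ENSMUSG00000108414, chr19:8723475-8726443), Snhg12 (ENSMUSG00000086290, chr4:132308623-132311024) and Zfas1 (ENSMUSG00000074578, chr2:167062934-167065862) are on the plus strand. Since the strand setting of the counting is not given in the sources used here, reads from the stretches shared with Morc2a, Kcnq1 and Znfx1 cannot be assigned to 1 of the 2 genes.

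The 4 hosts hold 26 annotated snoRNA genes: 10 in Gas5, 8 in Snhg1, 5 in Snhg12 and 3 in Zfas1, with Snord80 and Snora16a each entered as 2 overlapping genes. They are shown by 5 of them, 1 or more for each host, since the snoRNA is the product for which a host is named. Capitals mark the box C letters TGATGA within the first 25 bases and the box D letters CTGA within the last 25, the short motifs that snoRNP proteins bind. Sequences are from GENCODE M21, 5′ to 3′, and lie at chr1:161038082-161038158 for Snord47 in Gas5, chr19:8723993-8724064 for Gm25855 in Snhg1, chr4:132310691-132310764 for Snord99 in Snhg12, chr2:167065276-167065365 for Snord12 and chr2:167064998-167065086 for Gm23201 in Zfas1, all on the plus strand.
Snord47: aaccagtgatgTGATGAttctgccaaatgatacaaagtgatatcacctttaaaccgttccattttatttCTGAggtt
Gm25855: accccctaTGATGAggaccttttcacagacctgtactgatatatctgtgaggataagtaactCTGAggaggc
Snord99: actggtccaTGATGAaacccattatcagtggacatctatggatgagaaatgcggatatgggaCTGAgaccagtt
Snord12: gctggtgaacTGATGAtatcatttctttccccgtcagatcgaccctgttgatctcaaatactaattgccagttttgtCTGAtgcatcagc
Gm23201: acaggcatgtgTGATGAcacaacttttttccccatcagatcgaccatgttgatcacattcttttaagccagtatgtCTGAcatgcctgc

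Both sets of letters were in 18 of the 26 snoRNAs, and in 311 of all 1507 annotated snoRNA genes (20.6%). In Snhg12, 3 entries, of which 2 are the overlapping entries for Snora16a and the other is Snora61, have the letters ACA 3 bases before the end, the mark of the class that guides pseudouridylation. These letters are in 276 of all 1507 annotated snoRNA genes (18.3%). Snora44, also in Snhg12, has neither these nor the box C and box D letters. Only Gm23201, shown last, had any count, at 20 to 51 reads per library. All 26 lie wholly within exons of retained-intron transcripts of their host, where they cover between 9.29% of the exon bases in Zfas1 and 20.9% in Snhg1. The values below are counts assigned to the host genes and are not measures of the snoRNAs. The overlap mode of the counting is not given in the sources used here. Reads from snoRNAs or unspliced introns may therefore be included in the host counts or left out of them.

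RefSeq start windows (GRCm38.p6) were found for 7 of the 8 members, 8 windows in all. They are shown for the hosts, because messenger RNAs of ribosomal proteins and several snoRNA hosts begin with a run of pyrimidines, and for Malat1 as a nuclear RNA. Each run has 20 bases before the annotated start and 30 from it on. Capitals mark an uninterrupted pyrimidine run that holds a C within 10 bases of the start followed by at least 4 pyrimidines. The windows are chr1:161035146-161035195 for the downstream start of Gas5, chr19:8723467-8723516 for Snhg1, chr4:132308658-132308707 for Snhg12 and chr2:167062914-167062963 for Zfas1, all on the plus strand, and chr19:5802643-5802692 on the minus strand for Malat1.
Gas5: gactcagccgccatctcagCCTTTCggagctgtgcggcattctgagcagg
Snhg12: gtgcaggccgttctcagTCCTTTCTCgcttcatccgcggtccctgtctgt
Snhg1: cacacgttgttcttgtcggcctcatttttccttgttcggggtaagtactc
Zfas1: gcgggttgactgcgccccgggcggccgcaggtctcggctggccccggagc
Malat1: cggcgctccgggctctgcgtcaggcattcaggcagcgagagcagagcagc

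Gas5 and Snhg12 held such a run at these starts, although the other Gas5 window, upstream, did not, and the other 2 hosts and the 3 nuclear RNAs with a window did not. Over all genes with a window the share was 34.4% (9297 of 27025), against 58.9% (33 of 56) for ribosomal protein genes and 6 of 12 for other snoRNA host noncoding genes, so the run is common and a match does not set a gene apart. In the full windows of 300 bases, the letters TTGGC, the half-site of the nuclear factor I family to which NFIB belongs, were present on either strand for Tug1, Kcnq1ot1, Gas5 and Snhg1, 4 of 8 windows, against 46.7% of all 32851. The whole palindrome, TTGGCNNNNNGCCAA, which contains that half-site, was in none of the 8 and in 0.0365% of all. The glucocorticoid half-site AGAACA was in 1 of 8, that of Snhg1, against 6233 of all 32851, and the full element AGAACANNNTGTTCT, which contains it, in none.

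The shallowest library, shMLL1 at day 7, had 21608680 counts in total and the deepest, shNFIB at day 0, had 34774066. The hairpin targets were lower in their own lines: Nfib had 3715 and 2546 counts in shControl at day 0 and day 7 against 1115 and 241 in shNFIB, and Kmt2a had 2387 and 2022 in shControl against 933 and 850 in shMLL1. Nfib in shMLL1 had 1976 and 1774. These counts are not scaled for depth. As scaled log2 ratios to shControl at day 0 and day 7, Nfib in shNFIB was at −1.77 and −3.37. In shMLL1, Kmt2a was at −1.20 and −0.92, less than 2-fold lower at day 7, and Nfib at −0.75 and −0.19. Mesenchymal markers summed to between 6076 and 15140 CPM, counts per 1000000 counts of the TMM-scaled library, with Nt5e at no more than 6 counts. Of the blood markers only Cd68 (38 to 217 counts) was over 3, with Ptprc at 3 or fewer. Pecam1 had at most 19 counts and Epcam 0, while Tek had 66 to 795 and Cdh1 6 to 286. The mitochondrial genome took 2.01% to 2.65% of counts at day 0 and 4.78% to 7.77% at day 7, and its part in the results was not tested. In bulk samples, fewer cells of a kind and less RNA per cell cannot be told apart.

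Per length of annotated exon, Malat1 and Neat1 had the highest medians over the 6 libraries and Kcnq1ot1 the lowest. For the hosts this length includes retained introns. It equals the whole span of Snhg1 (2969 bases), Snhg12 (2402) and Zfas1 (2929), and is 3760 of 4118 bases for Gas5. Their values per kb are thus lower than over spliced exons alone, by an amount not measured here, and their order against the nuclear RNAs depends on the annotation. For Neat1 the length is its whole span of 20771 bases. Counts per gene do not separate transcripts of different length, so reads of any shorter Neat1 transcript are divided by that same length. The place of Neat1 comes from day 7: at day 0 it was at 18.1, 23.1 and 19.1 CPM per kb in shControl, shNFIB and shMLL1, against 35.2, 15.5 and 90.8 for Zfas1, and in shMLL1 at day 0 Zfas1 also exceeded Malat1 (60.7). The median over 6 libraries was 90.4 CPM per kb for Malat1 and 65.3 for Neat1. Zfas1 followed at 38.6, Snhg1 at 31.9, Tug1 at 19.5, Gas5 at 13.9 and Snhg12 at 13.5, and the ranges over libraries of any neighbours in this order overlapped. Kcnq1ot1 was at 0.101 CPM per kb, with no library above 0.219, below the lowest library of every other member. Its highest count was 496, so its values carry the widest intervals.

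**Figure D1:**
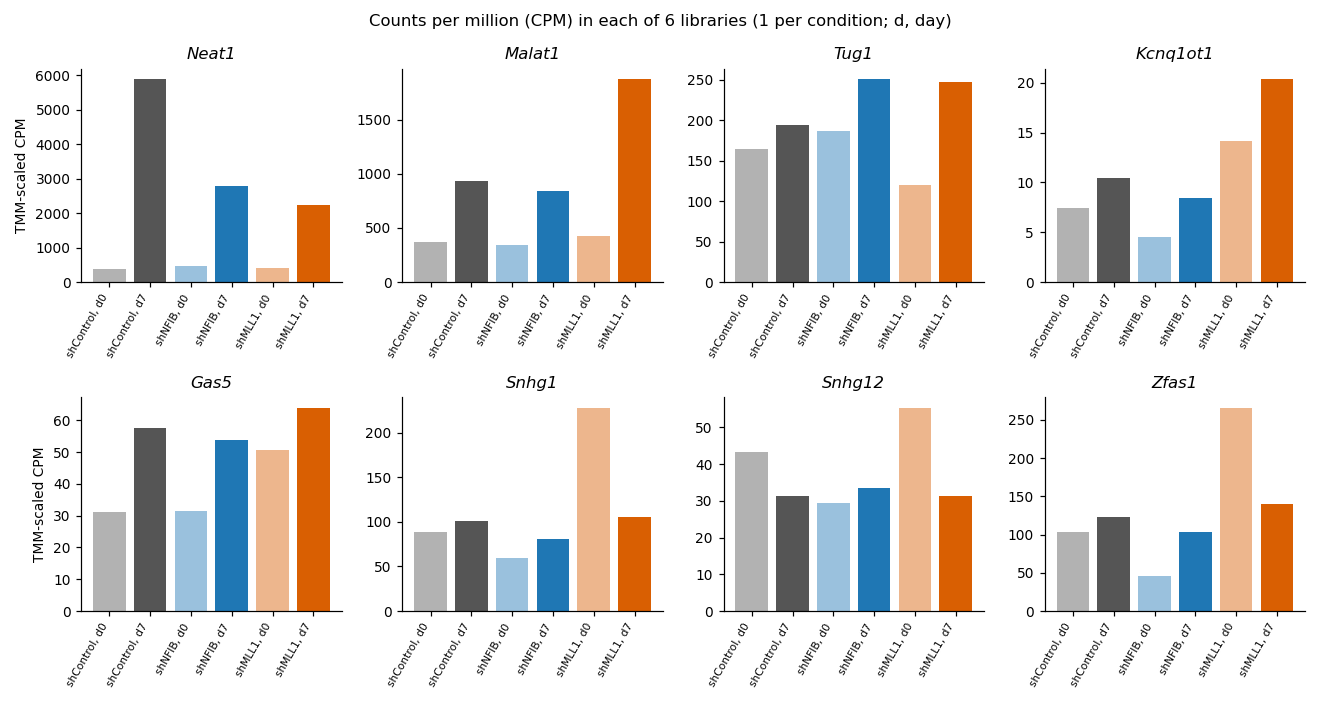
Levels of the 8 members, 1 panel a gene, in CPM scaled by TMM factors on a linear axis from 0. Each bar is 1 library, pale at day 0 and full at day 7, grey for shControl, blue for shNFIB and orange for shMLL1. Neat1 and Malat1 are higher in all 3 day 7 libraries, whereas Snhg1, Snhg12 and Zfas1 are highest in shMLL1 at day 0.

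Over the 3 lines, day 7 was compared with day 0 in 1 fit with the line as a block (edgeR quasi-likelihood test, called at a Benjamini-Hochberg adjusted p under 0.05 over 16742 genes). Neat1, Malat1 and Gas5 rose, and none of the 8 members fell. Of all genes tested, 16.9% were called higher and 16.7% lower, beside 3 of 8 and 0 of 8 among the members. The median log2 change of the members was 0.60 and that of all genes −0.0047.

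Neat1 had the largest change among the members. Its level was 376, 480 and 397 CPM at day 0 in shControl, shNFIB and shMLL1, and 5905, 2803 and 2234 CPM at day 7. The groups of 3 do not overlap, and the lowest day 7 library stands far above the highest day 0 library. The share of all genes that separate the days in this way is not given, here or for the genes below. The log2 fold change was 2.99 ± 0.41 (SE, n = 3 lines), a fold of 7.97, with an adjusted p of 0.00267 (edgeR). In 15 alternative fits the log2 change stayed between 2.51 and 3.28, and each called it (largest adjusted p 0.0103). At day 7 in shControl, Neat1 took 0.620% of all counts (95% Wilson interval 0.617% to 0.623%), ranked 7 among all genes and made up 32.1% of the counts of long noncoding genes. At day 0 in the same line it took 0.0368% and ranked 395.

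Malat1 was at 371, 339 and 424 CPM at day 0 in shControl, shNFIB and shMLL1. At day 7 the same lines had 935, 839 and 1878 CPM, so that every day 7 library was above every day 0 library. The log2 fold change was 1.59 ± 0.29 (SE, n = 3 lines), a fold of 3.02, with an adjusted p of 0.00723 (edgeR). It was called in 15 of 15 alternative fits, at 1.30 to 1.77 on the log2 scale and with adjusted p up to 0.0392. The Neat1 to Malat1 count ratio was between 0.936 and 1.42 at day 0, and was 6.32 in shControl, 3.34 in shNFIB and 1.19 in shMLL1 at day 7.

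Gas5, named for its accumulation in growth-arrested cells, was at 31.2, 31.5 and 50.6 CPM at day 0 and at 57.7, 53.9 and 64.0 CPM at day 7 in the same order of lines. The groups do not overlap, though the shMLL1 library at day 0 comes close to the shNFIB library at day 7. The log2 fold change was 0.67 ± 0.20 (SE, n = 3 lines), with an adjusted p of 0.0372 (edgeR). Over 15 alternatives the log2 change stayed between 0.55 and 0.85, but the call depends on single libraries. It was lost without any 1 of the 4 libraries of shControl and shNFIB (adjusted p 0.134 without shNFIB day 0, 0.116 without shNFIB day 7, 0.283 without shControl day 0 and 0.261 without shControl day 7), without either whole line, and in the fit without the line block (0.0859). The direction was kept in all 15 alternatives, with 8 of 15 calling it.

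The remaining 5 members were not called. Tug1 was at 165, 186 and 119.6 CPM at day 0 and 194, 251 and 247.5 CPM at day 7, with a log2 change of 0.57 ± 0.23 and an adjusted p of 0.0973 (edgeR, n = 3 lines). Kcnq1ot1 was at 7.48, 4.55 and 14.1 CPM at day 0 and 10.4, 8.42 and 20.4 CPM at day 7. Both were higher at day 7 in all 3 lines. The days do not overlap for Tug1, and they overlap for Kcnq1ot1, whose level in shMLL1 at day 0 exceeds that of the other lines at day 7.

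The log2 change of Kcnq1ot1 was 0.63 ± 0.23 with an adjusted p of 0.0708 (edgeR), which passed the threshold with library size alone, with scaling on protein-coding genes and with DESeq2 (3 of 15 alternatives, adjusted p from 0.0407 to 0.388 over all 15). Snhg1 (−0.16 ± 0.32), Snhg12 (−0.37 ± 0.24) and Zfas1 (0.17 ± 0.38) had adjusted p of 0.717, 0.259 and 0.747 (edgeR), with lines that differed in direction. Without the shMLL1 library at day 0, Zfas1 had a log2 change of 0.70 and an adjusted p of 0.0382 (edgeR), and its 15 alternatives ran from −0.35 to 0.73.

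**Figure D2:**
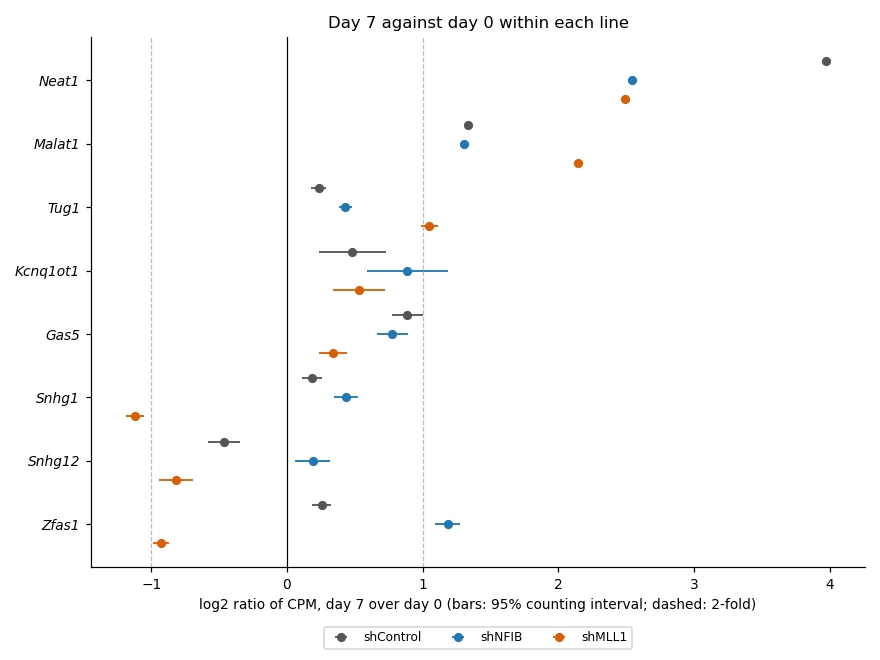
Log2 ratio of CPM at day 7 over day 0 within each line for the 8 members, with exact 95% intervals of the counts as bars and 2-fold as dashed lines. Neat1 and Malat1 lie to the right of 2-fold in all 3 lines, and Snhg1 and Zfas1 have points on both sides of 0.

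Within single lines there is 1 library on each side, so ratios are given with exact Clopper-Pearson 95% intervals that cover counting error only, and without a p-value. Neat1 was 15.7-fold higher at day 7 in shControl, with a log2 ratio of 3.97 (3.946 to 3.999). In shNFIB it was 2.54 (2.52 to 2.57) and in shMLL1 2.49 (2.46 to 2.52). The ratio was thus smaller in both knockdown lines than in shControl. On the log2 scale the difference was −1.43 (−1.46 to −1.39) for shNFIB and −1.48 (−1.52 to −1.44) for shMLL1. Intervals of such differences between ratios are normal approximations from the counts. This comparison of libraries was not tested against replicate spread.

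Malat1 showed another order, with 1.33 (1.30 to 1.37) in shControl, 1.31 (1.27 to 1.34) in shNFIB and 2.15 (2.12 to 2.18) in shMLL1. The ratio in shMLL1 exceeds that in shControl by 0.81 (0.77 to 0.85), while for shNFIB the difference of −0.03 (−0.07 to 0.02) includes 0. Tug1 was past 2-fold in shMLL1 alone, at 1.05 (0.99 to 1.11), against 0.23 in shControl and 0.43 in shNFIB. Morc2a, which overlaps Tug1, had 3054, 2829 and 2596 counts at day 0 and 4276, 4910 and 6431 at day 7 and was called higher over the lines (log2 1.01 ± 0.24, adjusted p 0.0200, edgeR), and its part in the Tug1 values was not tested.

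The hosts split by line. Zfas1 was higher at day 7 by 1.18 (1.09 to 1.27) on the log2 scale in shNFIB and by 0.26 (0.19 to 0.32) in shControl, but lower in shMLL1, at −0.93 (−0.98 to −0.87). Snhg1 was at 0.18 (0.11 to 0.26) in shControl, 0.43 (0.35 to 0.52) in shNFIB and −1.12 (−1.19 to −1.05) in shMLL1. Snhg12 was lower in shControl, at −0.46 (−0.58 to −0.34), and in shMLL1, at −0.82 (−0.95 to −0.69), and higher in shNFIB, at 0.19 (0.06 to 0.32). Gas5 alone among the hosts was higher at day 7 in each line, at 0.89, 0.78 and 0.34.

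Counted by a fold of 2, Neat1 and Malat1 were higher in shControl, Neat1, Malat1 and Zfas1 in shNFIB, and Neat1, Malat1 and Tug1 in shMLL1. Of all genes, 22.1%, 17.6% and 24.1% were higher by that fold in these 3 lines. Only Snhg1 in shMLL1 was lower by more than 2-fold, where 20.3% of all genes were, and no member was in shControl or shNFIB, where 14.8% and 12.9% were.

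Each knockdown line was compared with shControl over both days, with day as a term in the same fit (edgeR, 2 libraries a line). No member was called in either comparison. The fit has no term for a line effect that differs between days. Such an effect counts as spread, so these tests can miss it. For shNFIB 0.113% of all genes were called higher and 0.305% lower, for shMLL1 0.0119% and 0.0179%, so these tests called few genes of any kind, although 2077 and 1540 genes had an unadjusted p under 0.05. Of the members, 0 had such a p for shNFIB and 1 for shMLL1. DESeq2's Wald test called no member in either.

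That 1 member was Kcnq1ot1. Its counts were 239, 149 and 405 at day 0 and 319, 252 and 496 at day 7 in shControl, shNFIB and shMLL1, so that shMLL1 was highest and shNFIB lowest on both days. Over both days the log2 difference of shMLL1 from shControl was 0.94 ± 0.28 (SE, n = 2 libraries a line), with a p of 0.0118 and an adjusted p of 0.329 (edgeR quasi-likelihood test). By day it was 0.92 (0.68 to 1.15) at day 0 and 0.97 (0.76 to 1.17) at day 7, with counting intervals that span 2-fold. For shNFIB it was −0.72 (−1.02 to −0.42) and −0.31 (−0.56 to −0.07).

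Genes of the imprinted domain around Kcnq1ot1 were measured in part. Of 11 listed, 7 had enough counts to be tested, and Kcnq1, Cdkn1c, Phlda2 and Ascl2 had 5 counts or fewer in each library. None of the 7 was called in either line comparison. Over days, Osbpl5, a lipid transfer protein gene, rose by 0.80 ± 0.20 and Slc22a18, a transporter gene, by 0.94 ± 0.28, while the tetraspanin gene Tspan32 fell by 1.16 on the log2 scale ± 0.24 (edgeR, adjusted p 0.0201, 0.0407 and 0.0113). Thus 2 of 7 rose and 1 fell, beside 16.9% and 16.7% of all genes tested. Tssc4, next by p in the day test, was not called. In shMLL1 against shControl, Tspan32 had −1.71 ± 0.29 (adjusted p 0.0990), Slc22a18 −1.56 ± 0.35 (0.185) and Osbpl5 −0.81 ± 0.24 (0.312), none past the threshold. The median over the 7 was −0.25 and that over all genes 0.02.

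**Figure D3:**
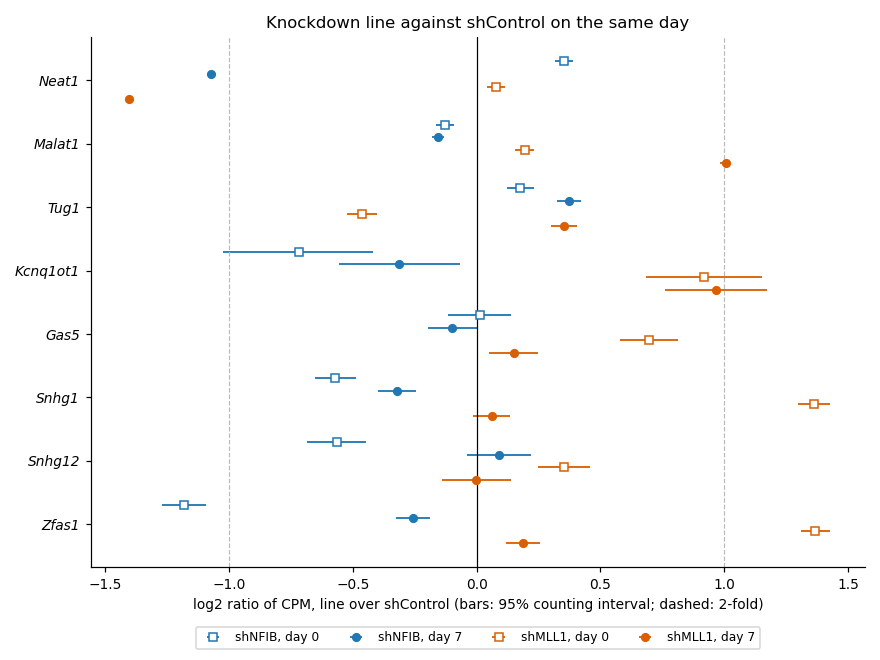
Log2 ratio of CPM in each knockdown line over shControl on the same day, open squares for day 0 and filled circles for day 7, blue for shNFIB and orange for shMLL1, with exact 95% intervals of the counts and 2-fold as dashed lines. Neat1 is left of 2-fold in both lines at day 7, and Snhg1 and Zfas1 are right of it in shMLL1 at day 0.

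At day 0, Neat1 and Malat1 differed little between lines. Neat1 was higher in shNFIB by 0.35 (0.32 to 0.39) on the log2 scale and in shMLL1 by 0.08 (0.04 to 0.12). At day 7 it was lower than shControl in both, 2.11-fold in shNFIB (log2 −1.07, −1.09 to −1.06) and 2.64-fold in shMLL1 (−1.40, −1.42 to −1.39). The 2 knockdown libraries thus lie on the same side of the shControl library, which is shared by both ratios.

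Malat1 at day 7 was 2.01-fold higher in shMLL1 (log2 1.01, 0.98 to 1.03), with an interval that spans 2-fold, and was at −0.16 (−0.18 to −0.13) in shNFIB. Tug1 in shMLL1 was lower at day 0, at −0.46 (−0.53 to −0.40), and higher at day 7, at 0.35 (0.30 to 0.40). In shNFIB it was at 0.18 and 0.37.

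Among the hosts the libraries of day 0 differed most. Snhg1 was at 88.7, 59.8 and 228 CPM in shControl, shNFIB and shMLL1 at day 0 and at 101, 80.8 and 105 CPM at day 7. Zfas1 was at 103, 45.4 and 266 CPM at day 0 and at 123, 103 and 140.0 CPM at day 7. For both, shMLL1 at day 0 was the highest of the 6 libraries and shNFIB at day 0 the lowest.

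In shMLL1 at day 0 the log2 ratio to shControl was 1.36 (1.30 to 1.43) for Snhg1 and 1.37 (1.31 to 1.43) for Zfas1, and at day 7 it was 0.06 (−0.02 to 0.14) and 0.19 (0.12 to 0.25). In shNFIB at day 0 it was −0.57 (−0.65 to −0.49) and −1.18 (−1.27 to −1.09). Without the shMLL1 library at day 7, the fit called both higher in shMLL1, by 1.41 and 1.57 (adjusted p 0.0156 and 0.0197, edgeR), against 0.605 and 0.626 with all 6 libraries, and these are then differences of single libraries at day 0 judged by the spread of the others.

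Snhg12 followed the same order at day 0, with 43.4, 29.3 and 55.4 CPM, and was nearly equal at day 7, with 31.4, 33.4 and 31.4 CPM. At day 7 its log2 ratio to shControl had an interval of −0.04 to 0.22 for shNFIB and one of −0.14 to 0.14 for shMLL1, both including 0. Gas5 in shMLL1 was higher at day 0, by 0.70 (0.58 to 0.81), and by 0.15 (0.05 to 0.25) at day 7, whereas in shNFIB it was at 0.01 (−0.12 to 0.14) at day 0 and −0.10 at day 7.

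By the 2-fold count, at day 0 Zfas1 was lower in shNFIB, where 7.61% of all genes were lower and 7.22% higher, and Snhg1 and Zfas1 were higher in shMLL1, where 11.4% were higher and 9.26% lower. At day 7 Neat1 was lower in both lines, beside 12.7% of all genes in shNFIB and 6.34% in shMLL1, and Malat1 was higher in shMLL1, beside 7.53%. No member was higher in shNFIB at day 7, where 7.78% of all genes were.

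**Figure D4:**
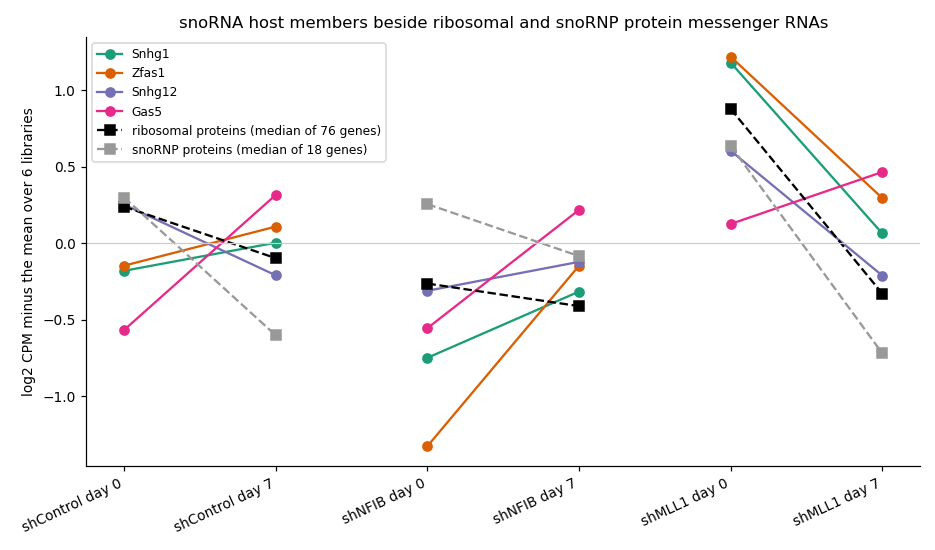
Log2 CPM of the 4 snoRNA host members in each library, centred on each gene's mean over 6 libraries, with the medians of 76 ribosomal protein genes and 18 snoRNP protein genes as dashed lines; segments join the 2 days of a line. Snhg1, Zfas1, Snhg12 and both medians have their highest value in shMLL1 at day 0, while Gas5 has its highest in shMLL1 at day 7.

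Ribosomal protein messenger RNAs had the same highest library as 3 of the hosts. Their summed level was 62400, 43710 and 96830 CPM at day 0 in shControl, shNFIB and shMLL1 and 45900, 37880 and 38990 CPM at day 7. In shMLL1 at day 0 all 76 were above shControl, with a median log2 ratio of 0.57, and in shNFIB at day 0 73 of 76 were below it, with a median of −0.50. From day 0 to day 7 within shMLL1 all 76 were lower, 58 of them by more than 2-fold, beside medians of −0.36 in shControl and −0.13 in shNFIB.

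In the test over 3 lines 12 of the 76 fell and 0 rose, with a median log2 change of −0.60. That number of falls is near the share among all genes tested (16.7%). Ribosomal protein genes have many processed pseudogenes, so reads can be split between near-identical copies and single values are uncertain. The 4 with the smallest p were Rps2 (−3.63 ± 0.25), Rps26 (−1.16 ± 0.26), Rplp0 (−1.26 ± 0.32) and Rpl28 (−1.08 ± 0.27). Of 18 genes of snoRNP proteins and their assembly factors, 11 fell and 0 rose, with a median of −0.93. Among them were Fbl, the methyltransferase of box C/D particles (−1.34 ± 0.30), Dkc1, the pseudouridine synthase of box H/ACA particles (−1.53 ± 0.25), and the assembly factors Naf1 (−0.92 ± 0.19) and Ruvbl2 (−1.38 ± 0.30). None of either list was called in a line comparison.

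Other snoRNA host noncoding genes gave a mixed picture. Of 13 tested, 3 rose and 1 fell, with a median of 0.38, beside 16.9% and 16.7% of all genes tested. Snhg17 (1.41 ± 0.28), Snhg20 (1.29 ± 0.30) and Snhg18 (0.80 ± 0.19) rose, and Snhg8 fell by 0.60 on the log2 scale ± 0.18 (edgeR, adjusted p 0.0107, 0.0172, 0.0200 and 0.0421). In shMLL1 at day 0, 11 of 13 were above shControl, 5 by more than 2-fold, and in shNFIB at day 0 10 of 13 were below, none by that fold. Of 16 genes of nonsense-mediated decay, 3 rose and 2 fell, with a median of −0.03, near the same shares of all genes. The endonuclease gene Smg6 (0.78 ± 0.21) and the helicase gene Dhx34 (0.95 ± 0.27) rose, and the exon junction genes Rbm8a (−0.93 ± 0.23) and Eif4a3 (−0.84 ± 0.23) fell.

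**Figure D5:**
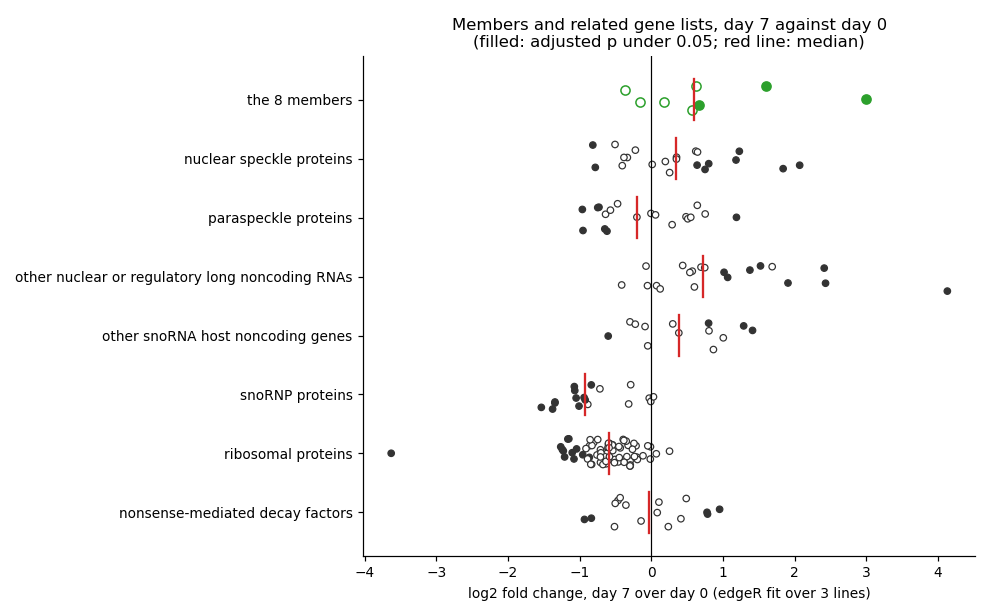
Log2 fold change from day 0 to day 7 over 3 lines for the 8 members and 7 related gene lists, 1 point a gene, filled where the edgeR adjusted p was under 0.05, with list medians in red. Neat1 lies at 2.99, beyond every paraspeckle and speckle protein gene, and the medians of snoRNP and ribosomal protein genes lie at −0.93 and −0.60. Vertical offsets within a list only separate the points.

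Among genes of the proteins that build paraspeckles around Neat1, more were called lower than higher. Of 19 genes, 1 rose and 6 fell, with a median of −0.20, beside 16.9% and 16.7% of all genes tested. By single lines, 9 of 19 were higher at day 7 in shControl, 6 in shNFIB and 9 in shMLL1. Ss18l1, a chromatin remodelling subunit, rose by 1.19 ± 0.25. Rbm14 (−0.96 ± 0.22) and Taf15 (−0.95 ± 0.22), both RNA-binding proteins, and Smarca4 (−0.75 ± 0.21), the remodelling ATPase, fell (edgeR, adjusted p 0.0125, 0.0157, 0.0158 and 0.0314 for the 4).

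Of 21 genes of nuclear speckle proteins, 7 rose and 2 fell, with a median of 0.35, beside 16.9% and 16.7% of all genes tested. The kinases Clk1 (2.07 ± 0.24) and Clk4 (1.84 ± 0.20), which phosphorylate SR proteins, and the SR family genes Srsf11 (1.23 ± 0.22) and Srsf5 (1.18 ± 0.26) rose. At the level of libraries Clk1 had 2842, 3827 and 3180 counts at day 0 and 12031, 11439 and 13807 at day 7, without overlap.

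Of 20 other nuclear or regulatory long noncoding RNAs tested, 8 rose and 0 fell, with a median of 0.72. The shares of all genes tested were 16.9% and 16.7%. Dnm3os, the host of miR-199a and miR-214, rose by 4.13 ± 0.40, Firre, which contacts several chromosomes, by 2.41 ± 0.23, Carmn, the host of miR-143 and miR-145, by 1.91 ± 0.31, and Mir22hg by 1.38 ± 0.26 (edgeR, adjusted p 0.000772, 0.000736, 0.00491 and 0.00858). None was called in a line comparison. Long noncoding genes as a class took 0.793% to 0.974% of counts at day 0 and 1.30% to 2.07% at day 7.

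Other growth arrest-specific genes, first found like Gas5 in arrested cells, went both ways. Of 5, Gas6 (5.17 ± 0.48) and Gas7 (2.24 ± 0.53) rose, Gas2 fell by 1.23 on the log2 scale ± 0.19, and Pmp22 (0.47 ± 0.22) was not called. Of all genes tested, 16.9% were called higher over days and 16.7% lower. Gas6, a ligand of TAM receptors, had 813 and 22101 counts in shControl at day 0 and day 7 but 2 and 9 in shNFIB, and was the only gene of the list called in a line comparison (shNFIB lower, adjusted p 0.00819, edgeR).

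The genes whose levels ran most like each member were sought among the 11095 that reached 50 counts in all 6 libraries, by the root mean square difference in centred log2 CPM over the 6 libraries. For Neat1 the nearest were the antisense RNA 2010007H06Rik (0.23) and Mgp, which encodes matrix Gla protein, an inhibitor of mineralisation (0.38), both farther away than the nearest gene of any other member. For Malat1 they were the co-chaperone gene Cdc37l1 (0.13) and Zfp950 (0.14), and for Tug1 Bicral (0.05) and Magi2 (0.06).

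For Kcnq1ot1 they were Alkbh1, a demethylase gene (0.18), and Brdt (0.19), and for Gas5 Nkapd1 (0.09) and Zfp53 (0.10). Snhg1 was nearest to Tomm5, of the mitochondrial import complex (0.08), and to the processed pseudogene Rpl34-ps1 (0.09), whose reads cannot be told apart with certainty from those of its parent gene. Snhg12 was nearest to Emc7, of a membrane insertion complex (0.06), and to the mitochondrial ribosome gene Mrps7 (0.07), and Zfas1 to Mitd1 (0.18) and Stard5 (0.20). Among the members themselves the closest pair was Snhg1 and Zfas1, at 0.27, on different chromosomes, and Neat1 and Malat1, neighbours on chromosome 19, were at 1.01.

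Genes beside the members were read in the same libraries. Frmd8, 4224 bases from Neat1, had a log2 change of 0.09 ± 0.19 from day 0 to day 7 and was not called (adjusted p 0.739, edgeR). Slc3a2, a subunit gene of amino acid transporters that lies 106 bases from Snhg1 on the other strand, had 11079, 9722 and 14754 counts at day 0 and 4992, 8990 and 4138 at day 7, with a log2 change of −0.89 ± 0.33 (adjusted p 0.0743, edgeR). Its highest library was shMLL1 at day 0, as for Snhg1. Zbtb37, a zinc finger gene on the other strand whose span overlaps that of Gas5 without shared exon bases, had 587, 786 and 441 counts at day 0 and 868, 1118 and 1352 at day 7. It was called higher over days (log2 1.03 ± 0.29, adjusted p 0.0306, edgeR) and was higher at day 7 in all 3 lines, as Gas5 was, and its part in the Gas5 values was not tested. Znfx1, which shares 82 exon bases with Zfas1, had 2111, 1607 and 1567 counts at day 0 and 2619, 2922 and 1516 at day 7, so its highest library was shNFIB at day 7 and not that of Zfas1.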

How the data were processed

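RNA was sequenced from 6 C3H10T1/2 samples, 1 library per condition, as paired 100 bp reads. The authors used Trimmomatic 0.39 for trimming, HISAT2 2.2.1 for alignment to mm10, SAMtools 1.12 to keep a mapping quality over 30, and htseq-count 0.11.1 after removal of PCR duplicates. They deposited raw counts. The strand setting, overlap mode and poly-A selection are not given in the sources used here, so levels of RNAs without a poly-A tail may depend on the library kit. The levels of Malat1 and Neat1 and their count ratio may be affected, which was not tested.

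Members, lists and comparisons were chosen with earlier results of these data known. Counts were fitted with edgeR 4.0.16 (TMM factors over 16742 genes kept by filterByExpr, quasi-likelihood test, terms for line and day, 2 residual degrees of freedom, Benjamini-Hochberg). DESeq2 1.42.0 was an alternative. The line pairs the days, since both libraries of a line come from the same line of cells; across genes the deviations of its 2 libraries correlated at 0.242 to 0.416. With 1 culture per condition, p-values measure the spread left after the line and day terms, not that of replicate cultures. Line effects that differ between days are part of that spread. Intervals of ratios (exact Clopper-Pearson), of differences between ratios (normal approximation) and of shares (Wilson) cover counting error only. Scripts were tested on simulated data.

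List genes given with a fold change are from the 4 with the smallest p in the day test, plus any called between lines. The marker and mitochondrial lists were not described in this way. Of the marker genes only Thy1, a mesenchymal marker, was called between lines, higher in shNFIB (edgeR). Genes alike in pattern are the nearest 2 per member, and neighbours are named where a result turns on them. Clk1 counts were picked after its values were seen. Promoter and RNA sequences are from RefSeq (GRCm38.p6) and GENCODE M21. The alternatives were other scalings, no count filter, DESeq2, no line block, fewer lines, and each library left out. ChIP-seq data were not used here.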

Additional observations from a re-analysis of the deposited data

Results flagged for a closer look

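Members were flagged on 2 kinds of sign change, with counting intervals clear of 0 on both sides. Either the change from day 0 to day 7 differed in sign between lines, or the ratio of 1 knockdown line to shControl did between days. These were Neat1, Tug1, Snhg1, Snhg12 and Zfas1. Opposite signs of the 2 knockdown lines on the same day, as for Malat1 and Kcnq1ot1 among others, were not part of this rule. All values are log2 ratios of CPM between single libraries, none of these differences was tested against replicate spread, and every sign was kept under the 4 other scalings.

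The Neat1 ratio to shControl was positive at day 0 in shNFIB (0.35) and shMLL1 (0.078), and negative at day 7 (−1.07 and −1.40). The day 0 ratio of shMLL1 is clear of 0 only under some scalings: with library size alone it was 0.0053 (−0.0318 to 0.0425) and with TMM factors over all genes it was 0.004 (−0.0332 to 0.0411). The 2 ratios of a day share the shControl library. Tug1 in shMLL1 was below shControl at day 0 (−0.46) and above it at day 7 (0.35).

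From day 0 to day 7, Snhg1 was higher in shControl (0.18) and shNFIB (0.43) and lower in shMLL1 (−1.12). Zfas1 gave 0.26, 1.18 and −0.93 in the same lines. Snhg12 was lower in shControl (−0.46) and shMLL1 (−0.82) and higher in shNFIB (0.19). For these 3 hosts shMLL1 at day 0 is the highest library and shNFIB at day 0 the lowest, and the summed level of 76 ribosomal protein genes is also highest in shMLL1 at day 0, at 96830 CPM.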

How the results depend on the processing

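Over all alternatives, 280 of 312 tests of single members kept their direction and side of the threshold, 7 lost a call, 6 gained one and 19 changed sign without being called in either fit. The line block changed the call of Gas5 (given above) and of no other member; without the replicate block the day test called 1850 genes lower, against 2790. With library size alone it called 3288 higher and 2116 lower, against 2834 and 2790, and moved the median of all genes to 0.14. Leaving out 1 library or line gave 1213 to 2720 genes higher and 1197 to 2935 lower, the fewest without the shControl line. Counts of genes called between lines depend on the fit. For shNFIB (19 higher, 51 lower) they were 341 and 347 without the count filter, 297 and 318 by DESeq2, 291 and 302 from its 4 libraries alone, and 16 to 649 and 66 to 516 with a library left out. For shMLL1 (2 and 3) they were 236 and 290, 182 and 244, 90 and 109, and 10 to 375 and 32 to 345. Members called higher in shMLL1 were 0 to 2 with a library left out. The count of members lower by 2-fold from day 0 to day 7 in shMLL1 became 0 with library size alone and with protein-coding scaling, and was 1 otherwise. Both settings gave 2 members higher by 2-fold in shMLL1 at day 7, against 1, and scaling over all genes of the table, chosen after the data were seen, gave 0. Of 224 ratios of single members under other scalings, 151 stayed within the counting interval and none past 2-fold changed sign. The cause of these shifts was not tested. Kcnq1ot1, at 149 to 496 counts, is limited most by depth.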
